A study of Mus musculus with 10 samples.

Results

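Windows of the mouse genome (build mm9) that carry the names of 10 imprinted genes, 8 in all, were examined in maps of open chromatin from 4 cell types. The windows were set by coordinates: chr7:149755000-149865000 for H19 and Igf2, chr12:110685000-110815000 for Dlk1 and Meg3, chr7:6650000-6690000 for Peg3, chr6:4690000-4720000 for Peg10, chr6:30680000-30705000 for Mest, chr17:12865000-12970000 for Igf2r, chr11:11825000-11945000 for Grb10 and chr10:12800000-12860000 for Plagl1. They span 620 kb. Of the 1816946 open sites in the 4 lists, 682 overlapped a window. These were 192 of 441855 sites in embryonic stem cells (ESC), 172 of 387312 in epiblast stem cells (EpiSC), 122 of 555868 in neural stem cells (NSC) and 196 of 431911 in embryonic fibroblasts (MEF).

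The sites came from FAIRE-seq, short for isolation of regulatory elements assisted by formaldehyde, in which crosslinked chromatin is sheared and DNA poor in nucleosomes is recovered by phenol extraction and sequenced. ESC were of the E14 line, grown without serum in N2/B27 medium with a MEK inhibitor at 1 µM, a GSK3 inhibitor at 3 µM and LIF at 1000 U/ml. EpiSC were of the E3 line, grown with FGF2 at 5 ng/ml on fibroblast feeders and then for 2 days without them. NSC were neural progenitors derived from ESC and grown with FGF2 and EGF at 10 ng/ml each, and MEF were taken from E16.5 embryos. ESC and EpiSC are thus each 1 line in culture. One label of the MEF samples names NSC chromatin, while their title and cell type name fibroblasts; the title was followed. A single list of sites was available for each cell type, so no spread between replicates could be measured and no test between cell types was made. The sources used here do not give whether a list held pooled replicates, and its read depth is unknown. For that reason each window was read against the same list's level over the 19 autosomes: 17.7 sites per 100 kb for ESC, 15.7 for EpiSC, 22.3 for NSC and 17.2 for MEF.

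Genomic imprinting is the expression of a gene from only the copy inherited from one parent. Imprinted genes lie in clusters, each governed by an imprinting control region whose DNA is methylated on CpG pairs on one parental copy and left unmethylated on the other. At H19-Igf2 and Dlk1-Meg3 that methyl mark is laid down in sperm, and at the other loci named here in the egg. Many of these genes act on fetal and placental growth. The lists do not tell the parental copies apart, so a site may have been open on either or both, and imprinting itself could not be read from them.

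Promoters of imprinted genes are often rich in CpG pairs, and RefSeq promoter sequences (build GRCm38.p6, 250 bases before to 50 after the start of a transcript) were found for 8 of the 10 genes. H19 and Peg10 had no entry. The 8 genes had 15 promoters, with a median of 13 CpG pairs each, against a median of 7 over the 32851 promoters of the table; 12 of the 15 were above that median. The 3 printed here belong to windows on which the results below turn, and each CpG pair is in capitals. They are the promoters of Peg3 (chr7:6730370-6730669, minus strand, 13 CpG pairs), Plagl1 (chr10:13090582-13090881, plus strand, 26) and Dlk1 (chr12:109452573-109452872, plus strand, 9).
Peg3: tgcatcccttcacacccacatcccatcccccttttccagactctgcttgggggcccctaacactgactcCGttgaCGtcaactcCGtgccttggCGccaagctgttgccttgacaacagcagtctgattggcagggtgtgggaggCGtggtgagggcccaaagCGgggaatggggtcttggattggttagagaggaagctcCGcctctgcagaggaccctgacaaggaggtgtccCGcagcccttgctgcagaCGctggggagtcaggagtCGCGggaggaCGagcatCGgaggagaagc
Plagl1: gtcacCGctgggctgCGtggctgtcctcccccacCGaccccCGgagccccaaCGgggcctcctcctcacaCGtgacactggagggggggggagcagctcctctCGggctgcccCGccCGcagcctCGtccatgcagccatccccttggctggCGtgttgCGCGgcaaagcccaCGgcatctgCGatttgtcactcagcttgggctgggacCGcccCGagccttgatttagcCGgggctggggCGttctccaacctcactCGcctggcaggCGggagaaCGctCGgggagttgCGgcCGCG
Dlk1: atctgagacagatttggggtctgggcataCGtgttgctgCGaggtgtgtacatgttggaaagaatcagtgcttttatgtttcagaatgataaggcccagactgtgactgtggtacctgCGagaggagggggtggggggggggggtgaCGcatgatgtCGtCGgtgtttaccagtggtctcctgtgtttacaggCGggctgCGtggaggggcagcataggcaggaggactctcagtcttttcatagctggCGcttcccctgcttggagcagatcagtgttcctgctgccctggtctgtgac
The CG pair alone was searched, which reads the same on both strands, and 94.6% of all promoters in the table held at least 1. These positions are on another build than the sites, so whether a site covers a promoter was not determined. The promoters of Grb10 had 45 and 9 CpG pairs, that of Igf2r had 34, those of Igf2 had 24, 14, 7 and 2, those of Mest 17, 17 and 8, and those of Meg3 13 and 1.

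Over the 8 windows together, sites were denser than on the autosomes in ESC, EpiSC and MEF, but not in NSC. The windows held 31.0 ESC sites per 100 kb, 1.74 times the autosomal level (95% interval 1.51 to 2.01). EpiSC had 27.7 sites per 100 kb, or 1.77 times the level (1.52 to 2.06), and MEF had 31.6, or 1.84 times (1.59 to 2.12). NSC had 19.7 sites per 100 kb, 0.88 times the level (0.73 to 1.05), an interval that includes equal density; the NSC ratio was 1.1 without the Dlk1-Meg3 window and 0.66 without the Igf2r window. These intervals are exact and cover counting error only; sites lie in runs, so they are too narrow. Set against the chromosomes that hold the windows, the ratios were 1.84 for MEF, 1.75 for EpiSC, 1.66 for ESC and 0.89 for NSC. The share of bases inside sites was 15.8% in the windows against 9.14% on the autosomes for ESC, 13.0% against 7.02% for EpiSC, 13.1% against 10.0% for NSC and 14.9% against 6.69% for MEF. NSC sites thus covered more bases in the windows together than on the autosomes although their density was not above its level. Their median width was 388 bp against 333 bp in the whole NSC list. NSC cover was 34.6% at Igf2r and 41.3% at Mest, but 5.54% at H19-Igf2, 2.96% at Grb10 and 0.66% at Dlk1-Meg3. It was also above 10.0% at Peg3, Peg10 and Plagl1. Cover with a window left out was not computed.

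The windows differed among themselves in which cell type was densest. ESC sites were above their autosomal level in 7 of the 8 windows, EpiSC sites in 8, NSC sites in 4 and MEF sites in 6. With the top 50% of scores of each list these numbers were 6 for ESC, 7 for EpiSC, 5 for NSC and 3 for MEF. EpiSC sites are few on chromosomes 7 and 12 and dense on chromosome 11, so the ratio to the same chromosome is given beside the ratio to the autosomes where they part.

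**Figure D1:**
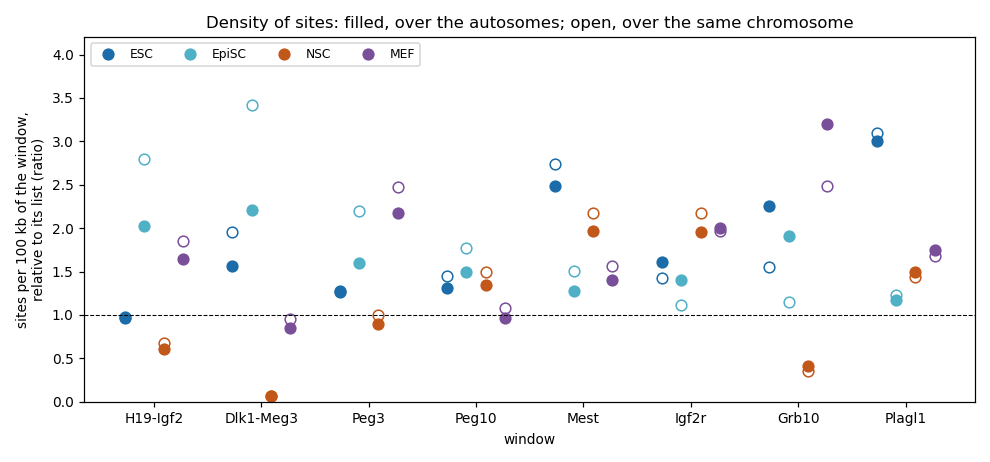
Sites per 100 kb in each of the 8 windows divided by the level of the same list over the autosomes (filled circles) or over the chromosome of the window (open circles), by cell type. The dashed line marks equal density; NSC lies at 0.07 in the Dlk1-Meg3 window and 0.41 in the Grb10 window, and MEF at 3.2 in the Grb10 window.

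The first loci to be described act on growth through the insulin-like growth factor pathway. Igf2 encodes a fetal growth factor made from the paternal copy, and H19, which comes before it along the chromosome in RefSeq, is a non-coding RNA made from the maternal copy. A control region between the genes, bound by the insulator protein CTCF on the maternal copy, decides which gene reaches their shared enhancers. The window held 19 ESC sites, 35 EpiSC sites, 15 NSC sites and 31 MEF sites. EpiSC and MEF stood above their autosomal level, at 2.03 times (1.41 to 2.82) and 1.64 times (1.11 to 2.33), while ESC stood at 0.97 times (0.59 to 1.52) and NSC at 0.61 times (0.34 to 1.01). With the top 50% of scores MEF turned to 0.84 times, ESC was at 0.62 and NSC at 0.08, while EpiSC stayed above its level at 1.51; NSC was at 0.35 with lists of equal length. Over its own chromosome EpiSC reached 2.8 times. Of 110-kb tiles of the autosomes with a site in any list, 13.3% held at least as many EpiSC sites, and 36.0% held as few NSC sites. Neither count was rare on that scale. Among the tiles of chromosome 7 alone the EpiSC count was at the 95.7th percentile, against 87.4 over the autosomes.

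No region of the H19-Igf2 window was open in all 4 lists. Here and below, such a region is a run of overlapping sites to which every list adds a site. The 4 lists need not share a base in it. The highest-scoring ESC site, at chr7:149796571-149797461, overlapped EpiSC and NSC sites and lay at the 89.3rd percentile of the ESC scores. The score is the authors' own and was ranked only within its list. In NSC the top site was chr7:149825112-149825503, at the 96.5th percentile, and no other list had a site there; it was also the widest region of NSC alone. The EpiSC top site, chr7:149841488-149841755 (87.3rd percentile), was likewise in no other list, whereas that of MEF, chr7:149827642-149828843 (84.3rd), was shared with ESC and NSC. The widest regions of a single list were 427 bp in ESC (chr7:149791875-149792301), 792 bp in EpiSC (chr7:149757176-149757967) and 1023 bp in MEF (chr7:149834710-149835732). Between 80 and 100 kb from the lower end of the window (chr7:149835000-149854999) there were 7 ESC, 10 EpiSC and 6 MEF sites and no NSC site. NSC also had none between 20 and 40 kb, where EpiSC had 8. The limits of this and other stretches inside windows were chosen after the sites were seen.

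**Figure D2:**
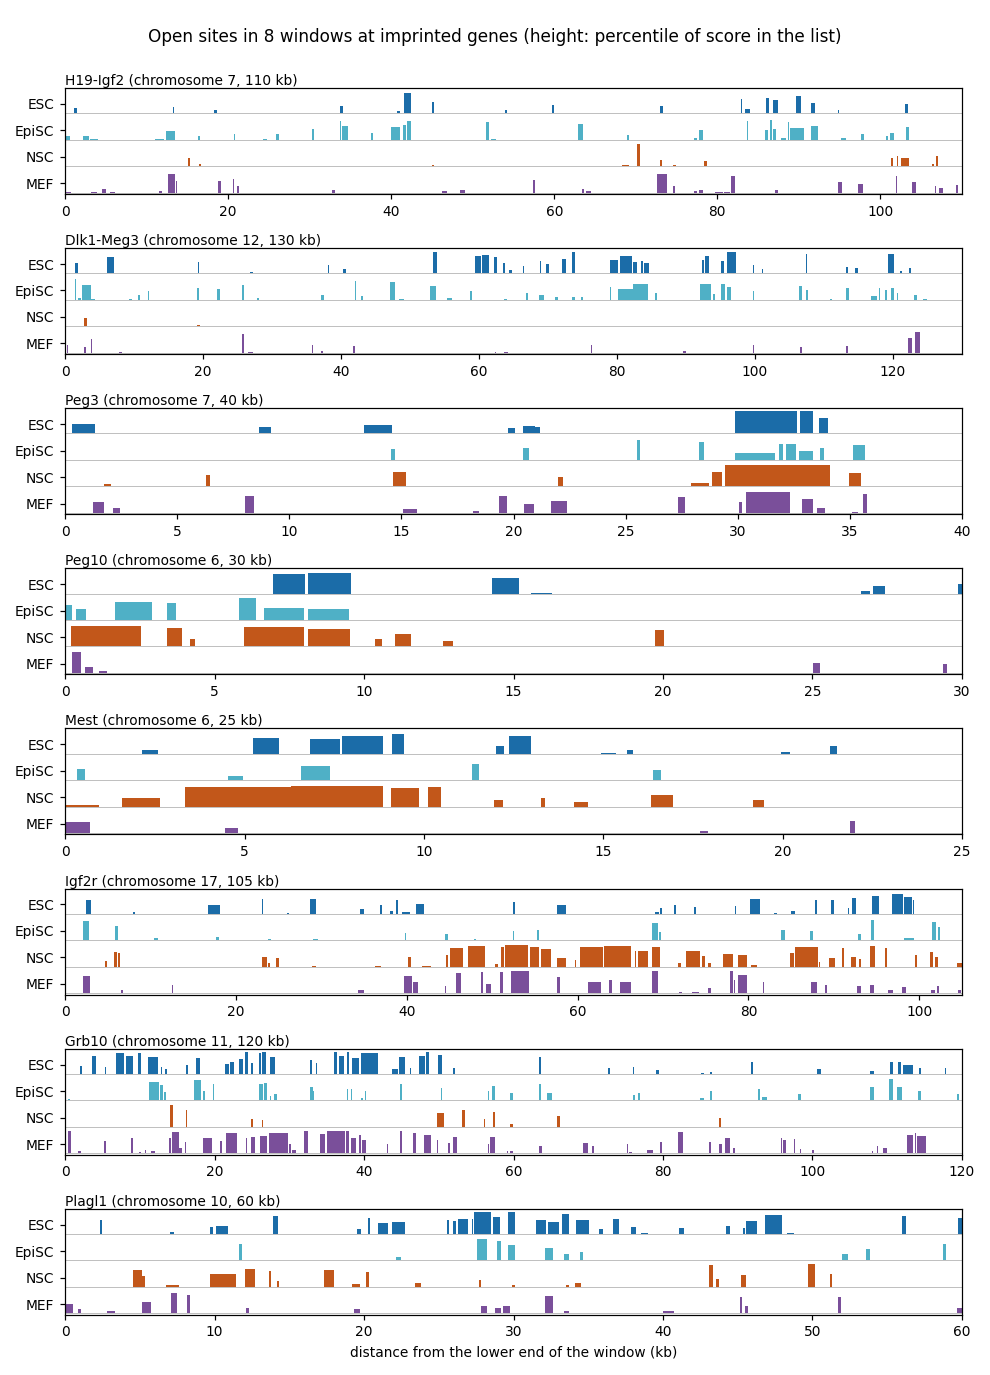
Open sites in each window by cell type, against the distance from the lower end of the window in kb; each bar spans a site and its height is the percentile of its score in its own list (full row height, 100). The Dlk1-Meg3 row of NSC is empty but for 2 sites, and NSC and MEF bars fill the middle of the Igf2r window.

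Igf2r encodes the receptor that takes up IGF2 and carries it to lysosomes. In the mouse it is expressed from the maternal copy, and the non-coding RNA Airn, which overlaps it in RefSeq, is made from the paternal copy and silences Igf2r in cis. The window held 30 ESC sites, 23 EpiSC sites, 46 NSC sites and 36 MEF sites, and NSC and MEF were the densest relative to their lists, at 1.96 (1.44 to 2.62) and 2.0 (1.4 to 2.76) times the autosomal level. ESC stood at 1.61 times (1.09 to 2.3) and EpiSC at 1.4 times (0.89 to 2.1), or 1.11 times its own chromosome, and EpiSC turned to 0.73 times with the top 50% of scores. Of autosomal tiles as wide as the window, 7.89% held as many MEF sites. Cover parted the lists further: sites took up 34.6% of the window's bases in NSC, 19.3% in MEF, 14.8% in ESC and 9.18% in EpiSC.

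The difference was greatest between 40 and 80 kb from the lower end (chr17:12905000-12944999). There NSC had 23 sites over 63.2% of the bases and MEF 20 sites over 32.5%, while ESC had 9 sites over 9.61% and EpiSC 8 over 6.02%. In the last 25 kb the cover was 32.3% in NSC, 25.8% in ESC, 17.9% in EpiSC and 16.8% for MEF, so the 4 lists lay closer together. In the window 10 merged regions were open in NSC and MEF only; over the 8 windows such regions were 18, or 4.62% of regions against 6.36% of all regions of the genome. Of the 66 merged regions at Igf2r, 9.09% were open in all 4 lists, against 10.5% at Peg3 and at Mest and 4.05% of all regions. Those at Igf2r were 6, the most of any window. The widest, chr17:12916504-12919280, was 2777 bp long, and held the top NSC site of the window (score 12.4, 96.2nd percentile); its MEF site was at the 96.6th percentile of MEF scores, its ESC site at the 50.1st and its EpiSC site at the 40.6th. At chr17:12933687-12934918 the highest percentiles were 97.8 in MEF, 87.0 in NSC, 77.5 in EpiSC and 27.6 in ESC. The other wide ones were chr17:12950481-12953142, with 87.4 in NSC, 59.5 in ESC, 50.2 in MEF and 39.7 in EpiSC, and chr17:12905721-12907837, where no list passed the 49.1st percentile, that of its MEF site. At chr17:12950481-12953142 the ESC and EpiSC sites did not overlap. At chr17:12905721-12907837 the EpiSC site overlapped neither the ESC nor the MEF site, and the NSC and MEF sites did not overlap. The top MEF site, chr17:12942894-12943140 (score 13.8, 99.7th percentile), was shared with NSC alone. Top sites of ESC (chr17:12961785-12963051, 89.0th) and EpiSC (chr17:12959331-12959678, 90.5th) both lay in the last 25 kb. Regions of 1 list reached 1192 bp in NSC (chr17:12932039-12933230), 599 bp in MEF (chr17:12914262-12914860), 471 bp in EpiSC (chr17:12948777-12949247) and 350 bp in ESC (chr17:12948027-12948376).

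Grb10 encodes an adaptor protein that dampens signalling from the insulin and IGF1 receptors. In the mouse it is expressed from the maternal copy in most tissues and from the paternal copy in neurons. Its window held 48 ESC sites, 36 EpiSC sites, 11 NSC sites and 66 MEF sites. The MEF count was 3.2 times the autosomal level (2.48 to 4.07), or 2.49 times that of chromosome 11, and only 0.339% of 120-kb autosomal tiles held as many MEF sites. NSC was at 0.41 times its level (0.21 to 0.74), but 26.4% of tiles held as few NSC sites. ESC was at 2.25 times (1.66 to 2.99) and EpiSC at 1.91 times (1.34 to 2.65) the autosomes, and over chromosome 11 alone these ratios were 1.55 and 1.15.

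Most of the contrast at Grb10 lay in the lowest 50 kb (chr11:11825000-11874999). MEF had 36 sites over 41.1% of the bases there and ESC 33 sites over 35.8%, against 18 sites over 13.1% in EpiSC and 5 sites over 2.07% in NSC. In the remaining 70 kb, MEF covered 18.3%, EpiSC 9.91%, ESC 9.3% and NSC 3.59%. From chr11:11912702 to 11975522, past the upper end of the window, NSC had no site for 62.8 kb. Of all gaps between NSC sites, 0.285% were as long. This share, like those of other gaps below, counts gaps and not bases. The longest gap that met the window was taken, and a window meets long gaps more often than short ones. Of the 22 merged regions of the 8 windows shared by ESC, EpiSC and MEF without NSC, 11 were in the Grb10 window; such regions were 5.64% of those in the windows against 1.66% of all. The few NSC sites were not all weak: chr11:11839007-11839366 scored 15.2, at the 98.4th percentile of NSC, and overlapped a MEF site. The top MEF site, chr11:11862578-11862988 (score 13.6, 99.6th), overlapped ESC and EpiSC sites, and the top ESC site, chr11:11873314-11873662 (97.8th), overlapped a MEF site. In EpiSC the highest score was at chr11:11935287-11935732 (95th), in an ESC site as well. Open in all 4 lists were 2 regions. At chr11:11850908-11851975 the percentiles were 96.5 in ESC, 77.0 in EpiSC, 76.9 in MEF and 29.4 in NSC, and at chr11:11874736-11875657 they were 84.4 in ESC, 61.2 in MEF, 59.2 in NSC and 54.5 in EpiSC. The widest regions of 1 list were 1178 bp in ESC (chr11:11831764-11832941), 754 bp in MEF (chr11:11902911-11903664), 674 bp in EpiSC (chr11:11918188-11918861) and 352 bp in NSC (chr11:11890880-11891231).

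Dlk1 encodes a membrane protein related to Notch ligands and is expressed from the paternal copy. Meg3 is a non-coding RNA of the maternal copy, and Rtl1 and Rian follow it in the gene order of RefSeq. The window held 36 ESC sites, 45 EpiSC sites, 2 NSC sites and 19 MEF sites. EpiSC was at 2.21 times its autosomal level (1.61 to 2.96) and at 3.42 times the level of chromosome 12. Of 130-kb autosomal tiles, 8.89% held as many EpiSC sites. Among the tiles of chromosome 12 alone that count was at the 99.4th percentile, against 91.6 over the autosomes. ESC was at 1.56 times (1.09 to 2.16) and MEF at 0.85 times (0.51 to 1.33), or 0.36 times with the top 50% of scores. NSC was at 0.07 times (0.01 to 0.25), the lowest ratio among the 32 pairs of window and list, and 3.20% of 130-kb tiles held 2 NSC sites or fewer. Neither NSC site was in the top 50% of NSC scores, and with the window widened by 20 kb on each side NSC was at 0.11 times.

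The NSC sites of the Dlk1-Meg3 window both lay in its lowest 20 kb. The stronger was chr12:110687712-110688195, at the 37.4th percentile of NSC scores, and overlapped EpiSC and MEF sites. From chr12:110704531 to 110833881 no NSC site was listed over 129.4 kb, and 258 of 551630 gaps between NSC sites (0.0468%) were as long. Within that gap, between 60 and 100 kb from the lower end (chr12:110745000-110784999), ESC had 20 sites over 29.5% of the bases and EpiSC 15 sites over 26.5%, while MEF had 5 sites over 3.48%. Of the window's merged regions 12 were shared by ESC and EpiSC alone, and none by all 4 lists; over the 8 windows the pair alone held 27 regions, or 6.92% against 5.41% of all. The top ESC site, chr12:110780917-110782177 (score 9.84, 93.8th percentile), was in that stretch and overlapped an EpiSC site. EpiSC scored highest at chr12:110686474-110686621 (90.9th), in an ESC site too, and MEF at chr12:110808143-110808859 (93.4th), in an EpiSC site. Regions of 1 list reached 1035 bp in ESC (chr12:110745474-110746508), 925 bp in EpiSC (chr12:110801817-110802741) and 338 bp in MEF (chr12:110774598-110774935), and NSC had none.

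**Figure D3:**
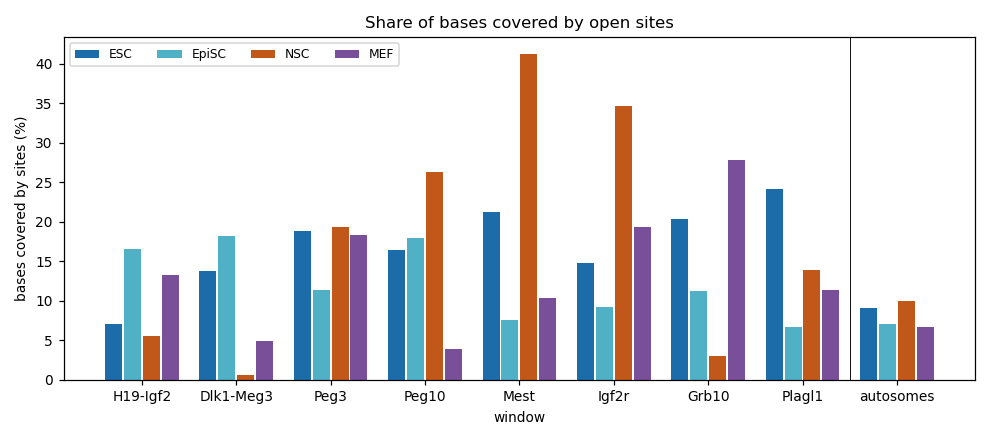
Share of bases inside open sites, in percent, in each window and over the autosomes (right), by cell type. NSC covers 41.3% of the Mest window and 34.6% of the Igf2r window but 0.66% of the Dlk1-Meg3 window, against 10.0% of the autosomes.

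Peg3 and Plagl1 encode zinc finger proteins that bind DNA and are expressed from the paternal copy. Peg3 lies between Zim1 and Usp29 in RefSeq's order, and Plagl1 (also called Zac1) restrains the cell cycle. The Peg3 window held 9 ESC sites, 10 EpiSC sites, 8 NSC sites and 15 MEF sites. MEF was at 2.18 times its level (1.22 to 3.6), and 8.70% of 40-kb tiles held as many MEF sites, while 52.0% held as few NSC sites. Against the autosomes, the intervals of ESC (1.27 times), EpiSC (1.6 times) and NSC (0.9 times) all included equal density. Over its own chromosome EpiSC was at 2.2 times, a ratio for which no interval is given. With the top 50% of scores ESC turned to 0.85 times and NSC to 1.12, and NSC was also at 1.12 in the widened window. Cover was 19.3% in NSC, 18.8% in ESC, 18.3% in MEF and 11.3% in EpiSC.

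The Peg3 window had the widest region open in all 4 lists, chr7:6679429-6684107, of 4679 bp. A single NSC site filled it (score 11.9, 95.5th percentile of NSC). In ESC 3 sites covered 3713 bp of it with a highest score of 13.0 (98.4th percentile), in MEF 4 sites covered 2944 bp (7.45, 92.1st) and in EpiSC 5 sites covered 3178 bp (4.25, 71.6th). It held the highest-scoring sites of the window in ESC (chr7:6682763-6683334), NSC and MEF (chr7:6680380-6682313). The second region in all 4 lists, chr7:6663338-6665713, scored lower, at the 64.0th percentile in NSC, 49.0th in EpiSC, 37.9th in ESC and 18.7th in MEF. In that second region the ESC site overlapped neither the NSC nor the MEF site, and the EpiSC and MEF sites did not overlap. The top EpiSC site, chr7:6675522-6675661 (88.3rd), was in no other list and was 140 bp wide. Regions of 1 list reached 496 bp in ESC (chr7:6658666-6659161), 483 bp in NSC (chr7:6678832-6679314) and 385 bp in MEF (chr7:6658027-6658411).

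The Plagl1 window held 32 ESC sites, 11 EpiSC sites, 20 NSC sites and 18 MEF sites. ESC was at 3.0 times its autosomal level (2.06 to 4.24), and 6.77% of 60-kb tiles held as many ESC sites. EpiSC was at 1.17 times (0.58 to 2.09), NSC at 1.49 times (0.91 to 2.31) and MEF at 1.75 times (1.04 to 2.76), but MEF was at 0.97 times with the top 50% of scores. Between 20 and 50 kb from the lower end (chr10:12820000-12849999), 24 ESC sites covered 40.1% of the bases, against 9.5% in EpiSC, 8.44% in NSC and 10.9% in MEF. In the lowest 20 kb the order was different, with 27.5% in NSC, 15.1% in MEF, 10.1% in ESC and 1.1% in EpiSC.

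At Plagl1 3 regions were open in all 4 lists, and in each the ESC site ranked above those of the other lists. The region chr10:12827373-12828464 was itself the top ESC site (score 15.4, 99.5th percentile) and held the top EpiSC site (chr10:12827543-12828256, 95th), while its NSC and MEF sites were at the 29.6th and 34.7th percentiles. At chr10:12829304-12830126 the percentiles were 99.2 in ESC, 70.6 in EpiSC, 30.8 in MEF and 7.7 in NSC, and at chr10:12833230-12833705 they were 89.2 in ESC, 28.2 in EpiSC, 11.8 in MEF and 10.3 in NSC. The top NSC site of the window lay elsewhere, at chr10:12849725-12850144, and no other list had it. Its score of 21.4, at the 99.7th percentile of NSC, was the highest of any list in the 8 windows on the lists' own scales, which are not shown to be the same. MEF scored highest at chr10:12807084-12807470 (89.3rd), in ESC and NSC sites as well. Regions of 1 list reached 1179 bp in ESC (chr10:12846799-12847977), 725 bp in MEF (chr10:12839995-12840719), 636 bp in NSC (chr10:12817330-12817965) and 382 bp in EpiSC (chr10:12852005-12852386).

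**Figure D4:**
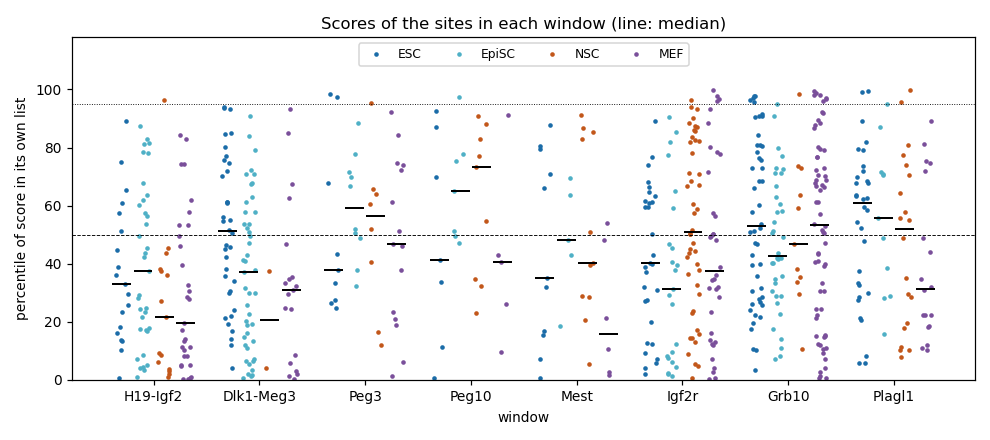
Percentile of the score of each site within its own list, by window and cell type, with the median as a black line; dashed and dotted lines mark the 50th and 95th percentiles. The Grb10 and Igf2r windows hold 7 and 4 MEF sites above the 95th percentile, and the Dlk1-Meg3 and Mest windows hold none of any list.

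Peg10 and Mest, on chromosome 6, are expressed from the paternal copy. Peg10 derives from a retrotransposon and is needed for the placenta; it lies beside Sgce, which encodes a sarcoglycan. Mest encodes a protein with a hydrolase fold and overlaps Copg2 in RefSeq. The Peg10 window held 7 ESC sites, 7 EpiSC sites, 9 NSC sites and 5 MEF sites, at 1.31, 1.49, 1.34 and 0.97 times their levels, and every interval included equal density. As many EpiSC sites were held by 32.6% of 30-kb tiles, and as few MEF sites by 56.9%. MEF was at 0.39 times with the top 50% of scores and at 1.08 times its own chromosome. The lowest 10 kb (chr6:4690000-4699999) carried most of the cover, with 64.8% of bases in NSC, 54.0% in EpiSC, 25.1% in ESC and 7.89% in MEF. In the window's remaining 20 kb EpiSC had no site.

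MEF listed no site at Peg10 from chr6:4691386 to 4715013, over 23.6 kb, and 2.98% of MEF gaps were as long. In that gap lay the top ESC site, chr6:4698126-4699549 (92.6th percentile), which overlapped EpiSC and NSC sites, and the top EpiSC site, chr6:4695820-4696367 (97.5th), which overlapped an NSC site. The top NSC site, chr6:4690184-4692536 (91.0th), overlapped EpiSC and MEF sites, and the top MEF site, chr6:4690233-4690521 (91.3rd), lay inside it. No region was open in all 4 lists. All 7 EpiSC sites overlapped NSC sites, against 38.9% of all EpiSC sites. These 7 were in the lowest 10 kb, where NSC sites covered 64.8% of the bases. Regions of 1 list reached 897 bp in ESC (chr6:4704289-4705185), 520 bp in NSC (chr6:4701035-4701554) and 244 bp in MEF (chr6:4715014-4715257), and EpiSC had none.

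The Mest window held 11 ESC sites, 5 EpiSC sites, 11 NSC sites and 6 MEF sites. ESC was at 2.48 times its level (1.24 to 4.44) and NSC at 1.97 times (0.98 to 3.53), but 16.7% of 25-kb tiles held as many ESC sites. EpiSC and MEF were at 1.28 and 1.4 times, and MEF turned to 0.46 times with the top 50% of scores. In a window 20 kb wider on each side ESC was at 1.3 times and MEF at 0.99. No list had a site in the 20 kb added above. NSC sites covered 41.3% of the window, the highest share in any window and list, and 82.8% of its lowest 10 kb (chr6:30680000-30689999), where ESC covered 34.7%, MEF 22.2% and EpiSC 14.5%. Both regions open in all 4 lists were NSC sites that the other lists covered in part. In the lower of them the ESC and EpiSC sites did not overlap. At chr6:30683351-30686288 the percentiles were 86.8 in NSC, 70.9 in ESC, 21.1 in MEF and 18.4 in EpiSC, and at chr6:30686303-30688859, which held the top NSC site, they were 91.1 in NSC, 79.4 in ESC, 63.8 in EpiSC and 2.5 in MEF. The top ESC site, chr6:30689101-30689449 (87.6th), overlapped an NSC site, while those of EpiSC (chr6:30691340-30691548, 69.6th) and MEF (chr6:30701877-30702016, 54.0th) were in no other list. Regions of 1 list reached 606 bp in ESC (chr6:30692386-30692991), 384 bp in NSC (chr6:30694178-30694561), 238 bp in MEF (chr6:30697688-30697925) and 209 bp in EpiSC.

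Sites in the windows were shared between cell types about as often as in the whole lists, or somewhat more often. A site counted as shared where it overlapped a site of another list by at least 1 bp. Of the ESC sites, 126 were shared with at least 1 other list, or 65.6% (58.4 to 72.3) against 60.0% of all ESC sites. In EpiSC they were also 126, or 73.3% (66.0 to 79.7) against 69.3%, and in MEF 122, or 62.2% (55.1 to 69.1) against 56.4%. NSC had 82 shared sites, or 67.2% (58.1 to 75.4) against 52.2% of all NSC sites, and only this interval lay above the level of its list. With the top 50% of scores the NSC share was 47.4% (34.0 to 61.0) against 39.8%, and no list's interval lay above its level.

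Over the 8 windows together, the overlaps with NSC and MEF sites differed in opposite directions from those of the whole lists. The windows were uneven in this, and these shares were not computed with a window left out. At Dlk1-Meg3 1 of 36 ESC sites and 2 of 45 EpiSC sites overlapped an NSC site. At Grb10 these were 4 of 48 and 4 of 36, but at Igf2r 16 of 30 and 16 of 23. ESC sites that overlapped a MEF site were 29 of 48 at Grb10 and 6 of 36 at Dlk1-Meg3. Of ESC sites in the windows, 35.9% (29.2 to 43.2) overlapped a MEF site, against 24.4% of all ESC sites, and 24.5% (18.6 to 31.2) overlapped an NSC site, against 33.1%. Likewise 42.4% of EpiSC sites (35.0 to 50.2) overlapped a MEF site, against 29.1%, and 29.1% (22.4 to 36.5) an NSC site, against 38.9%. ESC and EpiSC overlapped each other as in the whole lists, with 40.6% of ESC sites in EpiSC against 40.1%, and 46.5% of EpiSC sites in ESC against 45.0%. Of MEF sites, 31.1% (24.7 to 38.1) overlapped an NSC site, against 40.1%, while 32.7% overlapped an ESC site, against 25.0%, and 35.2% an EpiSC site, against 26.6%. Seen from NSC, where all 3 shares were above the level of the list, 34.4% (26.1 to 43.6) overlapped an ESC site, against 25.3%, the same share an EpiSC site, against 26.7%, and 41.0% (32.2 to 50.3) a MEF site, against 30.5%. Most of these differences were smaller among the top 50% of scores, but those between ESC and EpiSC were larger. At that setting 47.9% of EpiSC sites (35.9 to 60.1) overlapped an ESC site, against 36.9% of the EpiSC list. For ESC sites the share in EpiSC was 36.5% (26.9 to 46.9) against 33.3%. There 21.9% of ESC sites (14.1 to 31.5) overlapped a MEF site, against 16.7% of the ESC list, and 14.6% (8.21 to 23.3) an NSC site, against 22.4%. For EpiSC sites the share in MEF was 21.1% (12.3 to 32.4) against 21.2%, so that excess was gone, and for MEF sites the share in EpiSC was 16.9% (9.31 to 27.1), below that of the whole list at that setting. NSC sites had 19.3% in ESC against 16.6%, 21.1% in EpiSC against 19.3% and 28.1% in MEF against 23.8%, while MEF sites had 22.1% in ESC against 16.8% and 24.7% in NSC against 31.3%. NSC had the fewest sites in the windows, 122, and MEF the most, 196, and the part of these numbers in the overlaps was not tested.

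After sites of all lists were merged where they overlapped, the windows held 390 regions. The lists counted in a region need not share a base. Of these, 226 (57.9%) were in 1 list, 102 (26.2%) in 2, 47 (12.1%) in 3 and 15 in all 4 (3.85%), against 66.1%, 21.7%, 8.18% and 4.05% of the 1134236 regions of the genome. The share in all 4 lists was thus near that of the genome. The number in all 4 was 2 with the top 50% of scores of each list, or 0.985% against 2.35% of all regions at that setting, and 8 with lists of equal length, which hold fewer sites. Regions of NSC alone were 40, or 10.3% of the windows' regions against 23.4% of all regions. The 15 regions in all 4 lists were spread unevenly, with 6 at Igf2r, 3 at Plagl1, 2 each at Peg3, Mest and Grb10, and none at H19-Igf2, Dlk1-Meg3 or Peg10.

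**Figure D5:**
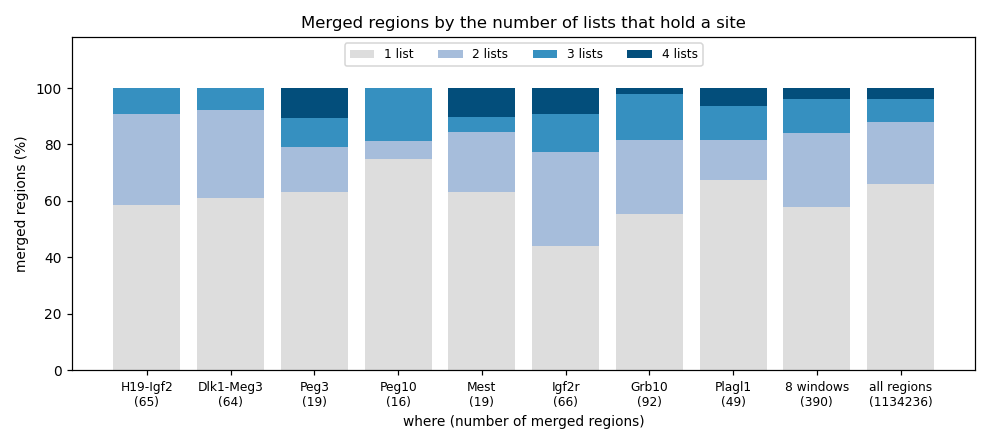
Merged regions of each window, of the 8 windows together and of the whole genome, in percent, by the number of lists that hold a site there; the number of regions is in parentheses. All-4 regions make up 10.5% at Peg3 and Mest and 9.09% at Igf2r, 3.85% of the 8 windows and 4.05% of all regions.

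Taken site by site, scores in the windows lay somewhat below the middle of their lists, by most in MEF and EpiSC. The median site was at the 48.9th percentile of the ESC scores, the 43.0th of EpiSC, the 45.3rd of NSC and the 39.0th of MEF. Weighted by width, it was 62.6 for ESC, 49.4 for EpiSC, 72.9 for NSC and 48.2 for MEF. The weighted median of a whole list was not computed, so these values have no level to be set against. Above the 95th percentile were 9 ESC sites (4.69% against 5.00% of the list), 3 EpiSC sites (1.74% against 5.00%), 6 NSC sites (4.92% against 5.00%) and 11 MEF sites (5.61% against 5.00%). By window and list, the median percentile ran between 15.8, in MEF at Mest, and 73.3, in NSC at Peg10. The median lay below the 50th percentile in all lists at H19-Igf2, at 19.6 in MEF, 21.6 in NSC, 33.1 in ESC and 37.3 in EpiSC. The same held at Mest, at 15.8 in MEF, 35.1 in ESC, 40.3 in NSC and 48.0 in EpiSC. Of the 11 MEF sites above the 95th percentile, 7 were at Grb10 and 4 at Igf2r, and of the 9 ESC sites, 5 were at Grb10, 2 at Peg3 and 2 at Plagl1.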

How the data were processed

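Per the labels, FAIRE-seq was done on 4 cell types and genomic DNA was a control, with 2 samples in each of 5 groups. Lists of sites for 4 of the 10 samples, 1 per cell type, were used, and the other 6 were not analysed here as files. Per the submitters' processing notes, the genome build was mm9 and the tools included CASAVA 1.8. Each deposited list gives the position of a site, a score made by the authors and a display value. The sources used here do not give the unit of the score, the thresholds, the aligner or how the control entered; on testing, the display value was within 1 of 100 times the score, capped at 1000. Since the number of reads is unknown, depth may set the length of a list.

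Coordinates are printed 1-based. A site belonged to a window if it overlapped it by 1 bp or more. Densities were divided by those of the 19 autosomes (2472 Mb in all, each taken to end at its last site) or of the same chromosome. Tiles of the autosomes as wide as each window, kept only where any list had a site, give the background. Sites that overlapped were merged into regions, which fell into 15 combinations of lists. Sites may overlap in a chain, so the lists of a region need not share a base. Exact Clopper-Pearson 95% intervals cover counting error only. No p-value is given, since each cell type had 1 list. In each window the text names every region open in all 4 lists (the 4 widest where there were more), the highest-scoring site of each list, and the widest region of each list alone. The genes, windows and lists were chosen with earlier results of these data known, and no gene annotation of mm9 was used, so sites were not assigned to promoters or control regions.

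Alternatives were the top 50% of each list by score, lists cut to 387312 sites, an overlap of 50% of the shorter site, merging of sites under 200 bp apart, windows widened by 20 kb, each window left out in turn and medians weighted by width. Overlaps were tested on simulated data and checked against bedtools 2.31.1. Computation used scipy 1.17.1, pandas 2.3.3 and numpy 2.4.6 under Python 3.11.15, and figures matplotlib 3.10.9.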

Additional observations from a re-analysis of the deposited data

How the results depend on the processing

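Setting each summary value over the 8 windows against each alternative gave 97 comparisons within the counting interval or within 1.5 times the count and 20 outside; for values by window or by pair of lists they were 153 and 23. The NSC density ratio crossed 1; the cause was not tested except where fewer sites or windows entered by construction. With the top 50% of scores, the windows held 96 ESC, 71 EpiSC, 57 NSC and 77 MEF sites, the shared percentages were 63.4 for EpiSC, 54.2 for ESC, 47.4 for NSC and 45.5 for MEF, the density ratio was 1.46 in EpiSC and 1.44 in MEF, and 2 regions were in all 4 lists. With lists of equal length, 65.1% of EpiSC sites were shared and 8 regions were in all 4 lists. Windows widened by 20 kb held 185 NSC sites. The NSC density ratio was 1.1 without the Dlk1-Meg3 window and 0.66 without the Igf2r window, and the MEF ratio was 1.51 without the Grb10 window. Weighted by width, the median score percentile was 62.6 in ESC, 72.9 in NSC and 48.2 in MEF. No paired analysis was possible because only 1 list stood for a cell type, and for the same reason no replicate could be left out. Read depth is unknown, so an absent site says only that none was listed.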

Other observations

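At the upper end of the Mest window began a stretch in which no list had a site. From chr6:30702017 to 30755970, over 54.0 kb, no site was listed for any cell type. Of the 1121501 gaps between merged regions of the genome, 427 (0.0381%) were as long. Whether reads could be aligned to this stretch was not tested, so it is not shown to be closed chromatin. The 50 kb above the window held 0 sites in each list, while the 50 kb below it held 14 ESC, 21 EpiSC, 37 NSC and 14 MEF sites. The gap was found after the data were seen.

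The flanks of other windows differed between sides as well. Above the Grb10 window the 50 kb held 2 ESC, 6 EpiSC, 2 NSC and 10 MEF sites, and below it 28 ESC, 22 EpiSC, 2 NSC and 20 MEF sites. At Dlk1-Meg3 NSC had 6 sites in the 50 kb below and 4 in the 50 kb above, so the scarcity of NSC sites went on past the window. ESC had 23 and 12 sites in the same flanks, EpiSC 10 and 13, and MEF 18 and 13.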
